A study of Mus musculus with 51 samples.

Results

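The tumors described here were the 22 unsorted primary mammary tumors of a mouse model, ordered by how much Krt5 and Krt14 transcript they held. The 11 highest were set against the 11 lowest, and every other measured gene was compared across that order. Those 22 tumors were 22 of the 50 samples of the series, which came from 51 arrays since tumor CR115 was hybridized to 2 arrays and was averaged. Keratins 5 and 14 pair to build the intermediate filaments of basal cells in stratified and glandular epithelia. In the mammary gland they mark the outer, basal or myoepithelial layer, whereas keratins 8 and 18 mark the inner, luminal layer that makes milk. Basal cells sit on the basement membrane, express the transcription factors p63 and Slug, and in the mature gland also carry the contractile proteins that squeeze milk out.

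The mice carried Wap-Cre, a Cre recombinase driven by the promoter of the milk protein gene Wap, and a conditional Etv6-NTRK3 knock-in allele, which joins a transcriptional repressor to the kinase domain of a neurotrophin receptor once Cre has acted. All 22 tumors shared that genotype and were profiled as whole tissue, so each array mixes tumor epithelium with stroma, vessels and blood cells, and in such bulk samples fewer cells of a type and less RNA per cell cannot be told apart. They came from 14 mice, and tumors of 1 mouse share a host. Other arrays of the series served only as reference: 5 unsorted wild-type mammary glands, and 12 arrays of lacZ-positive tumor cells sorted from 8 mice of the same model that gave none of the 22 tumors (8 from primary tumors and 4 from tumors transplanted into RAG2-/- recipients). Mouse ages, scan times and hybridization batches were not given in the sources used here.

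A tumor's score was the mean of its log2 intensities of Krt5 and Krt14, each read from its probe set of highest mean, after intensities below 32 had been raised to 32. On that scale 5 is the floor and a difference of 1 is a 2-fold change. Both groups were therefore chosen by measured values of these same arrays, and high against low is a description of the 22 tumors, given without a test.

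The score of the 11 basal keratin-high tumors ran from 10.14 through a median of 10.79 to 11.81, and that of the 11 basal keratin-low tumors from 6.52 through 8.52 to 9.97. The groups are separate by construction, and the low group was the more spread, with an SD of 1.24 against 0.47 (n = 11 each). Krt5 lay between 9.91 and 11.45 in the high tumors, with a median of 10.51, and between 5.71 and 10.47 in the low tumors, with a median of 7.52. Krt14 lay between 10.36 and 12.16 in the high tumors, with a median of 11.01, and between 7.19 and 10.59 in the low tumors, with a median of 9.52. Taken singly, each keratin still overlapped between the groups. The Krt14 probe set used is of a class whose probes may also match related transcripts. Of Krt14's other probe sets, the bright one differed by 2.54 between the groups and the dim one by 0.50.

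The line between the groups ran through a crowded stretch of the order. The last tumor below it, CR115, scored 9.97 and the first above it, D206T2, scored 10.14, a gap of 0.18. The widest gap, 1.16, lay lower, between D206T1 at 8.62 and E93T1 at 9.79. The low tumors E93T1, C393T1, C395T5 and CR115 thus stood closer to the high tumors than to the other 7 low ones. For comparison, the 5 wild-type glands scored 10.54 ± 0.24 (SD), within the range of the high tumors, and 4 arrays of sorted hyperplastic cells scored 8.47 ± 0.65.

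**Figure D1:**
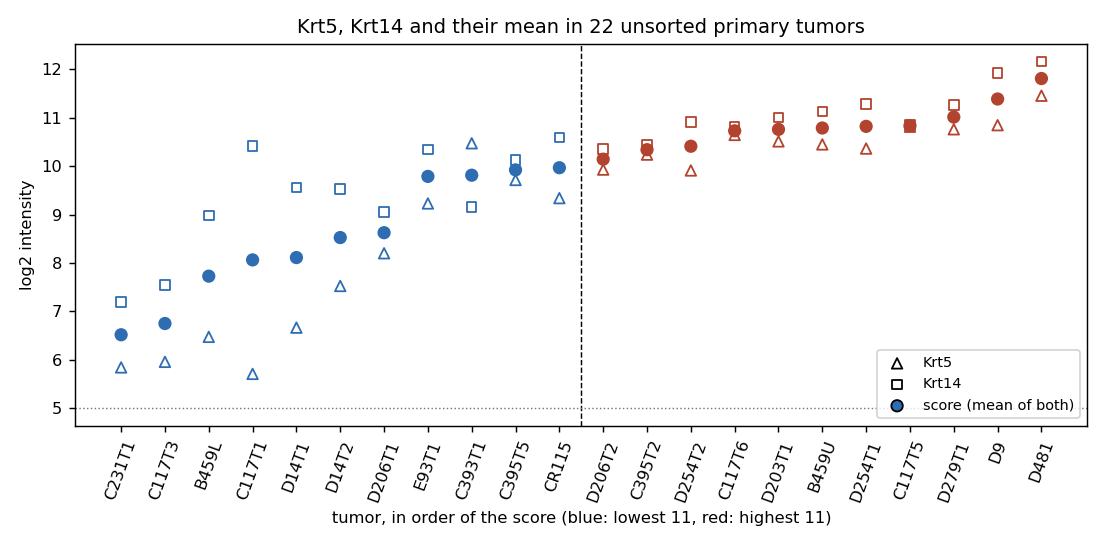
Log2 intensity of Krt5 (triangles), Krt14 (squares) and their mean (filled circles) in each of the 22 unsorted primary tumors, in order of the mean; the dashed line parts the lowest 11 (blue) from the highest 11 (red) and the dotted line is the floor of 5. The score climbs from 6.52 to 11.81, and its widest step lies between D206T1 and E93T1, below the dashed line.

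Of 15148 other genes, 72 (0.475%) had a mean at least 2-fold higher in the high tumors and 65 (0.429%) a mean at least 2-fold lower. No gene had groups that did not overlap (0 of 15148). Of the 72, 19 were on a list of basal keratins, adhesion proteins and transcription factors or on a list of epidermal and squamous differentiation, and none of the 65 was. Those lists held 30 and 31 of the 15148 genes, a share so small that none among 65 is unremarkable. The rest of the 72, among them Glycam1, Sostdc1, Wif1 and S100a14, were on neither list. The downward genes included matrix, secreted and metabolic genes. Between the tumors left out one at a time, the upward count ran from 66 to 95 and the downward count from 46 to 87. With the floor at 100 the counts were 39 and 31.

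Keratin 6a, a filament partner made by stressed and hair-follicle epithelium, showed the largest upward difference under the rule for named genes. Krt6a ran from 9.87 through a median of 10.20 to 11.23 in the high tumors and from 5.00 through 7.22 to 10.20 in the low tumors. Only C393T1 of the low group reached into the range of the high group. The mean difference was 2.87, with SDs of 0.39 in the high and 1.99 in the low tumors (n = 11 each). Krt6a's other 2 probe sets differed by 1.48 and 2.72. The one used is, as for Krt14, of the class whose probes may also match related transcripts. Krt17, another keratin of basal and follicle cells, ran from 7.89 through 9.32 to 11.13 against 5.00 through 6.84 to 9.02, a mean difference of 2.55. Krt17's dimmer probe set differed by 0.16. Krt6b differed by 1.71, and Krt15, a keratin of basal and stem cells, by 0.99. Keratins of this family are close in sequence, so probe sets of one may pick up another. Whether the Krt6a set also reads Krt5, a gene of the score, was not tested.

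The basal transcription factors Trp63, Snai2 and Id4 were also higher in the high tumors, whereas Sox10, on the same list, differed by -0.24. Trp63 encodes p63, which sets up and maintains basal cells. It ran from 7.60 through 8.05 to 9.75 in the high tumors and from 5.00 through 6.52 to 8.14 in the low tumors, a mean difference of 1.88. Tumor CR115 at 8.14 and the other low tumors next to the line (7.48 to 7.76) lay among or beside the high tumors, while the 7 lowest lay between 5.00 and 6.58. Trp63's other 3 probe sets differed by 0.19 to 0.57, and the mean over all its probe sets by 0.71, so the size of this difference rests on 1 probe set. Snai2 encodes Slug, a repressor found in basal mammary cells. It ran from 7.04 through 8.0 to 9.30 in the high and from 5.00 through 5.69 to 7.72 in the low tumors, a mean difference of 1.93, and its second probe set differed by 1.65. Id4, a helix-loop-helix inhibitor of basal mammary cells, differed by 2.34.

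Adhesion genes of the basal surface differed unequally. Col17a1, the transmembrane collagen of hemidesmosomes, ran from 5.97 through 8.47 to 9.33 in the high tumors. In the low tumors it ran from 5.00 through 5.00 to 7.83, with 5 of 11 above the floor. C117T6 was the high tumor at 5.97, and the other 10 high tumors lay between 7.76 and 9.33. The mean difference was 2.28. Lama3, the laminin chain that hemidesmosomes bind, differed by 1.21, and Pkp1, a desmosomal plaque protein, by 1.53. Itga6 and Itgb4, which together form the hemidesmosomal integrin, differed by -0.02 and 0.23. Trim29, a protein of basal epithelia, ran from 7.18 through 8.99 to 10.13 against 5.00 through 6.13 to 9.04, a mean difference of 2.31.

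Over the whole basal list, 10 of 30 measured genes were at least 2-fold higher, 0 were 2-fold lower and the median difference was 0.38, against a median of 0.00 over all genes. The mean level of the list ran from 7.82 to 8.66 in the high and from 6.56 to 7.80 in the low tumors. Cdh3 (P-cadherin), Egfr and Sox10, also basal markers, differed by 0.19, -0.05 and -0.24. On the myoepithelial contractile list 0 of 16 genes were past 2-fold either way, near the share of all genes (0.475% higher and 0.429% lower). Its median difference was 0.17. Acta2 (smooth muscle actin) was bright in every tumor, from 10.49 to 11.53 in the high and from 9.89 to 11.16 in the low. It differed by 0.32 and Tpm2 (a tropomyosin) by 0.76. Myh11, smooth muscle myosin, was above the floor in 5 of 11 high tumors, up to 6.84, and in 4 of 11 low tumors, up to 5.85. Calponin, Cnn1, was above it in 4 high tumors, up to 6.91, and in 2 low tumors, up to 5.41. The medians of both genes were at the floor of 5.00 in both groups. In the wild-type glands these genes averaged 9.86 (Myh11) and 8.57 (Cnn1), and Acta2 averaged 11.91. Of the genes checked against the label basal keratin-high, Krt6a, Krt6b, Krt17, Trp63, Col17a1 and Lama3 were at least 2-fold higher. Itga6 and Itgb4 were not 2-fold different. The contractile markers Myh11 and Cnn1 were at the floor in most of the 22 tumors, whereas Acta2 was bright in all of them.

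A few promoters are shown because their genes stand for the layers compared: Krt5 for the score, Col17a1 for basal adhesion and Sprr1a for the cornified envelope. Each window holds 250 bases before and 50 after the RefSeq start, in build GRCm38.p6, on the minus strand and written 5′ to 3′. Krt5 lies at chr15:101712856-101713155, Col17a1 at chr19:47691993-47692292 and Sprr1a at chr3:92485832-92486131. Capitals mark matches to TATAAA (core of the TATA box), to TGANTCA (bound by AP-1) or to GCCNNNGGC (bound by AP-2), each searched on both strands.
Krt5: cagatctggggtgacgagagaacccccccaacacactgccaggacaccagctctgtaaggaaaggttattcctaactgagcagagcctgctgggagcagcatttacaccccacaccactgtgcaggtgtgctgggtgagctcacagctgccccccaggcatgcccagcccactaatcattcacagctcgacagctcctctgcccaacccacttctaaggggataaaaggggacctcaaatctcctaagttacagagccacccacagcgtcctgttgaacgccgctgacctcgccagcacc
Col17a1: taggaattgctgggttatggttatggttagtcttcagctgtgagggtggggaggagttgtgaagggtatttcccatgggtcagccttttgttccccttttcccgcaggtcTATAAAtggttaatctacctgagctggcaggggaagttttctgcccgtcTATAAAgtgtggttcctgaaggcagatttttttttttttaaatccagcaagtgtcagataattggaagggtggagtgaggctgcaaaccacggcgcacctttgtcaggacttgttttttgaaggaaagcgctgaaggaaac
Sprr1a: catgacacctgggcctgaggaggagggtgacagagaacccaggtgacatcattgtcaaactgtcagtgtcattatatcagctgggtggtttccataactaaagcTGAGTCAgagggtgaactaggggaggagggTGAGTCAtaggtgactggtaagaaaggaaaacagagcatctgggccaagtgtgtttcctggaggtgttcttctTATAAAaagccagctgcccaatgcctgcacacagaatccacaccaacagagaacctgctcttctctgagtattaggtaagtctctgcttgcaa
A match to TATAAA was found at 140 and 91 bases before the Col17a1 start and at 43 bases before the Sprr1a start. Sprr1a also held TGANTCA at 146 and 116 bases before its start. The Krt5 window held none of these letters. Among 32851 promoter windows of the table, 13.6% held TATAAA, 7.81% TGANTCA and 16.6% GCCNNNGGC. Among the 9 windows that the table holds for Krt5, Krt14 and the 12 genes of largest upward difference, 3 held TATAAA, 4 TGANTCA and 0 GCCNNNGGC. Several of the 9 are alternative starts of Dmkn, and a match describes letters, not binding.

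Genes of epidermal differentiation were higher as well. On that list 9 of 31 genes were at least 2-fold higher and 0 were 2-fold lower. A difference above 0 was seen in 29 of 31, with a median of 0.35, against 7521 of all 15148 genes. Ly6d, a surface protein of stratified epithelia, ran from 7.96 through 10.30 to 11.13 in the high and from 5.51 through 6.74 to 11.14 in the low tumors, a mean difference of 2.80. In the low group CR115 at 11.14 and C395T5 at 10.09 stood with the high tumors, and the other 9 lay between 5.51 and 7.33. Sprr1a, a cross-linked protein of the cornified envelope, ran from 6.93 through 9.22 to 10.56 against 6.54 through 7.06 to 8.60, a mean difference of 1.82. Dmkn (dermokine, secreted by upper epidermal layers) differed by 2.04 and Perp, a desmosome protein under p63, by 1.62. Krt1, a keratin of suprabasal epidermis, was near the floor in both groups, averaging 5.09 in each. The cornified envelope precursor Ivl (involucrin) was also near it, averaging 5.35 and 5.02. Krtdap, Cst6 and Krt79 of the same list were among the 9 genes at least 2-fold higher. Krt79 averaged 9.80 in the high and 7.75 in the low tumors. Klk10, a secreted protease, differed by 1.78, but the highest value of all, 11.63, was in the low tumor C117T1.

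Secreted regulators of development were among the largest differences. Sostdc1, which blocks BMP and Wnt ligands, ran from 6.29 through 9.62 to 10.64 in the high tumors and from 5.00 through 7.06 to 9.06 in the low tumors, a mean difference of 2.72. Wif1, which binds Wnt ligands, ran from 6.84 through 9.57 to 10.93 against 5.00 through 6.17 to 9.27, a mean difference of 2.66. Both overlapped between groups, with C117T6 the lowest high tumor for Sostdc1 and C117T5 the lowest for Wif1. In the wild-type glands Sostdc1 was at 6.66 ± 0.88 and Wif1 at 5.46 ± 0.50 (SD, n = 5). Snai2 by contrast was at 8.76 ± 0.66 in those glands and at 7.94 ± 0.66 in the high tumors. Differences from gland were not tested here.

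Among 19 Wnt ligands and targets, Wif1, Wnt5a (1.21) and Wnt10a (1.13) were at least 2-fold higher, and Sfrp1, another secreted Wnt inhibitor, was 2-fold lower at -1.12. The median of that list was 0.24. Fst (follistatin, which binds activins) was the 1 gene of 19 in the TGF-beta and BMP list past 2-fold, at 1.87. Bmp7, a BMP ligand, differed by 0.99. Of 14 Notch genes, Hey1, a transcriptional target, was 2-fold lower at -1.12, while the ligand Jag2 differed by 0.47.

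**Figure D2:**
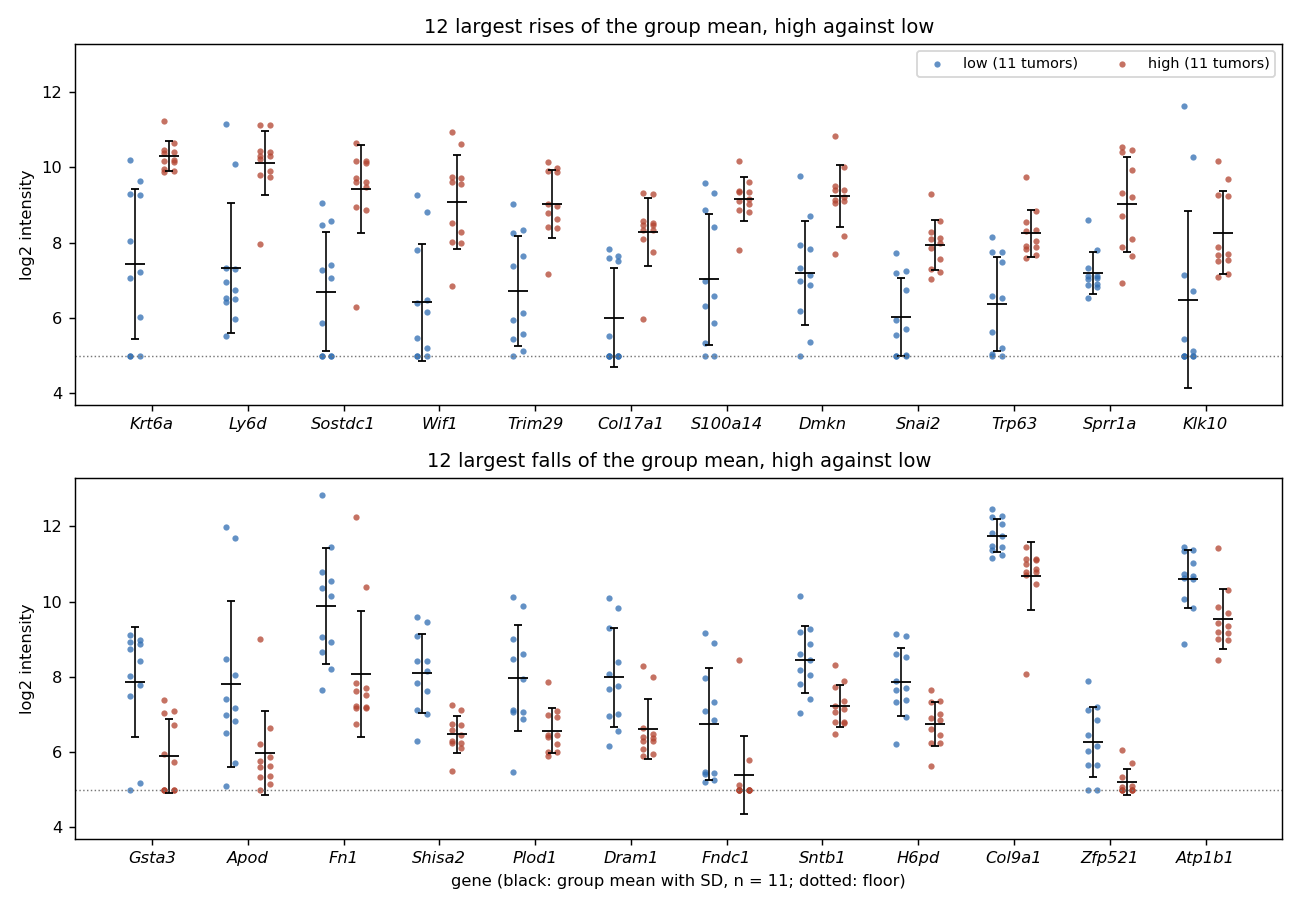
Log2 intensity of the 12 genes of largest upward and the 12 of largest downward difference under the naming rule, 1 point per tumor (blue low, red high, 11 each), with the group mean and SD in black and the floor of 5 dotted. Every gene overlaps between the groups, and for Krt6a the high tumors sit between 9.87 and 11.23 while the low tumors spread from 5.00 to 10.20.

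The luminal keratins Krt8 and Krt18 differed little between the groups. Krt8 ran from 11.39 through 12.33 to 13.10 in the high and from 11.67 through 12.45 to 13.07 in the low tumors, a difference of -0.10. Krt18 differed by -0.19 and Epcam, an epithelial adhesion protein, by -0.12. These 3 genes stayed bright in every tumor and overlapped almost fully. None of 26 luminal keratin and junction genes passed 2-fold either way, near the share of all 15148 genes (0.475% higher and 0.429% lower). A difference above 0 was seen in 22 of 26, with a median of 0.14, against 7521 of all 15148 genes. Among 15 luminal progenitor genes 2 (Itgb3 and Hey1) were 2-fold lower and 0 higher. Of 12 hormone-sensing luminal genes, Prom1 and Tspan8 were 2-fold lower and 0 higher. Without C117T6 only Tspan8 of that list was. Elf5, the alveolar transcription factor, differed by -0.13 and Kit, the receptor of luminal progenitors, by 0.72. The milk protein genes Csn2 (beta-casein) and Lalba (alpha-lactalbumin) differed by 0.31 and -0.27.

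Glycam1, a mucin-like milk protein, was the milk gene past 2-fold (1 of 21). It ran from 10.54 through 11.79 to 13.62 in the high tumors and from 5.00 through 9.36 to 13.22 in the low tumors. All 11 high tumors were bright, whereas the low tumors split, with 4 at 12.79 or more and 5 at 5.77 or less. Its mean difference of 3.15 was therefore set by the low tumors of low signal. No cell cycle gene passed 2-fold (0 of 29), near the share of all genes (0.475% higher and 0.429% lower), and Mki67 differed by 0.11. Etv6 and Ntrk3, the genes joined in the fusion, differed by 0.15 and -0.15, and whether their probes read the fusion transcript was not examined here.

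Matrix genes were among those of downward difference. Fn1 encodes fibronectin, a matrix protein of fibroblasts and of tumor cells. It ran from 6.76 through 7.51 to 12.26 in the high tumors and from 7.64 through 10.16 to 12.84 in the low tumors, a mean difference of -1.80. Its other probe set differed by -0.46. The high tumors C117T5 at 10.38 and C117T6 at 12.26 came from the same mouse, and the other 9 lay between 6.76 and 7.83. Dcn (decorin, a fibroblast proteoglycan) ran from 5.00 through 5.57 to 11.16 against 5.00 through 7.80 to 10.01, a mean difference of -1.31. Lum (lumican) and Loxl1, a collagen cross-linking enzyme, differed by -1.11 and -1.02. Over the fibroblast list 4 of 20 genes were 2-fold lower, 0 higher and 1 of 20 had a difference above 0, with a median of -0.62.

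C117T6 stood apart in the high group for stroma. The mean level of the fibroblast list there was 10.23, while the other 10 high tumors lay between 6.55 and 7.47 and the low tumors between 6.31 and 9.83. Without C117T6 the list had 8 of 20 genes 2-fold lower and a median of -0.89, and the difference of its mean level went from -0.65 to -0.95. The same tumor was the highest of the 22 on the myoepithelial contractile list, at 8.12, and on the hair follicle list, at 6.95, and was highest on the endothelial list at 7.17. The hair keratin Krt25 was at 6.67 in it and at the floor in all 11 low tumors. The basal list had 11 genes past 2-fold upward without C117T6, and its median was 0.40. The part of the fibroblast content of the other tumors in the differences of tumor genes was not tested.

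Other genes of downward difference had varied roles. Gsta3, a glutathione transferase, ran from 5.00 through 5.73 to 7.40 in the high and from 5.00 through 8.43 to 9.10 in the low tumors, a mean difference of -1.96. Col9a1, a collagen of cartilage type, ran from 8.06 through 10.87 to 11.44 against 11.15 through 11.76 to 12.45. It was bright in both groups and the groups overlapped only between 11.15 and 11.44, while the mean difference of -1.08 was -0.81 without C117T6. Apod (apolipoprotein D, a lipid carrier) differed by -1.85, and by -0.41 in its other probe set, with 2 low tumors, C117T3 and D206T1, at 11.70 and 11.98 and none other above 9.01. Plod1 (a collagen lysyl hydroxylase) differed by -1.39 in its brightest probe set and by -0.09 in its other. Shisa2, which retains receptors in the endoplasmic reticulum, differed by -1.62. Chil1, a chitinase-like secreted protein, had the most negative mean difference of all genes, -2.89, but fell outside the naming rule since its tumors lay on both sides of the median, and it is named here after its values were seen.

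Some lists lay to one side of 0 without many large differences, whereas 7521 of all 15148 genes had a difference above 0. All 16 hypoxia and glycolysis genes had a difference below 0, with a median of -0.48. Of these, Egln3 (a prolyl hydroxylase induced at low oxygen) and Adm (adrenomedullin) were at least 2-fold lower, at -1.20 and -1.01, and Bnip3 (a mitochondrial protein induced at low oxygen) differed by -0.68. In the other direction all 22 interferon response genes had a difference above 0, with a median of 0.34 and 1 gene, Oas2 (an antiviral synthetase), past 2-fold at 1.20. The mean level of the interferon list ran from 7.11 to 9.50 in the high and from 6.72 to 9.41 in the low tumors, so the groups overlapped over nearly their whole range. Macrophage, T cell and B cell lists had 0 genes past 2-fold and medians between -0.04 and 0.00. Over all genes 0.475% were 2-fold higher and 0.429% lower, so 0 in lists of this size is unremarkable. Of 9 adipocyte genes, Fabp4 and Car3 were 2-fold lower, at -1.42 and -1.05. Fabp4's other probe sets differed by -1.59 to 0.04. Car3 was at 11.55 in the low tumor C117T3 and at 9.31 in C395T5. Its medians were 5.00 in the high and 5.37 in the low tumors. The hair follicle list had 0 of 13 genes past 2-fold, and each list not described here had at most 1 gene 2-fold higher and at most 2 lower.

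**Figure D3:**
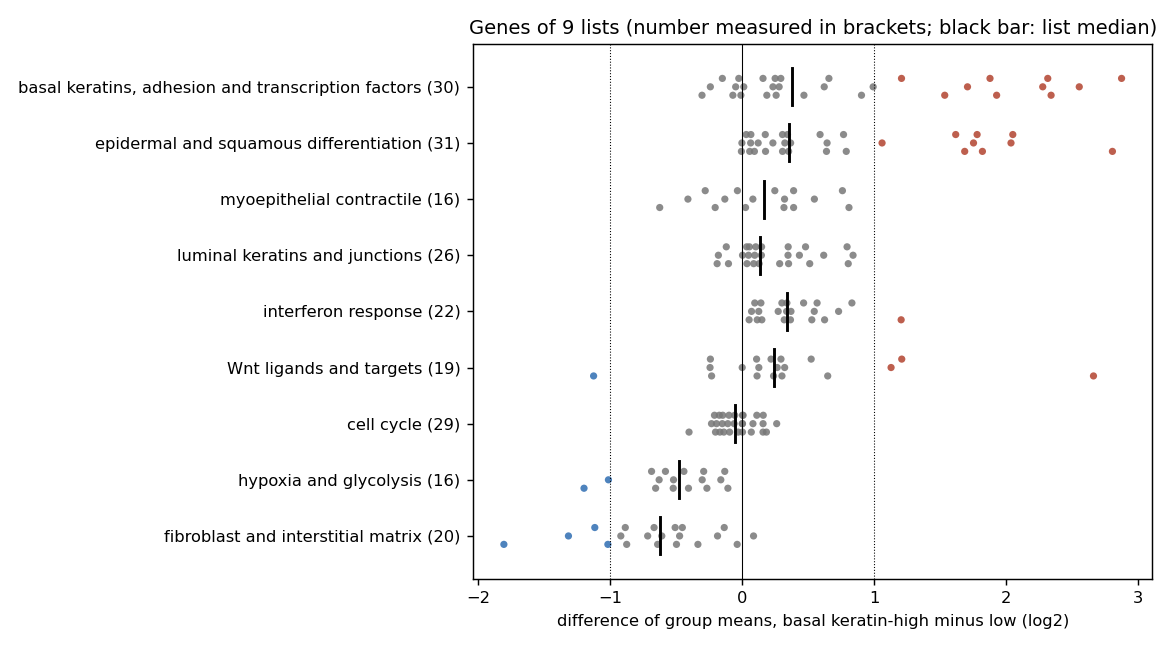
Difference of group means (log2, high minus low) of each measured gene of 9 lists, with the number of genes in brackets, the list median as a black bar and dotted lines at the 2-fold limits. The basal and epidermal lists have 10 and 9 genes beyond the upper limit and none beyond the lower, while the fibroblast and hypoxia lists lie mostly below 0.

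Gapdh 3′ to 5′ signal, a measure of RNA integrity, differed between the groups. Its log2 ratio was 0.22 ± 0.21 (SD) in the high and 0.07 ± 0.14 in the low tumors (n = 11 each), and 4 of the 5 highest values were in high tumors. Without those 5 tumors 67 genes were 2-fold higher and 37 lower. Those left out included D279T1, D9 and D481, the tumors of highest score, so the top of the keratin order went with them. The same ratio for Actb, a second control, was 0.58 ± 0.32 in the high and 0.53 ± 0.17 in the low tumors, with medians of 0.47 and 0.49. Array medians lay between 49.0 and 53.7 in the high and between 44.6 and 53.6 in the low tumors. The part of RNA integrity in the downward count cannot be told apart from that of the score here and was not tested.

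Across all 22 tumors the genes whose order was most like that of the score were Krt6a (Spearman rho 0.94), Snai2 (0.93), Trp63 (0.92), Col17a1 (0.91), Bmp7 (0.90), Krt17 (0.90), Perp (0.89) and Sostdc1 (0.87). These are descriptions over 22 tumors of 14 mice, several of which share a mouse.

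In all, 4 mice had tumors in both groups, which allows a comparison inside 1 host. The score of the high tumors exceeded that of the low tumors by 3.06 in mouse B459, 3.37 in C117, 1.52 in D206 and 0.42 in C395. Of the 12 genes of largest upward difference, 12 were higher in the high tumors of B459, 11 in C117, 12 in D206 and 10 in C395. Over all 72 genes 2-fold higher, 64 were higher in B459, 62 in C117, 69 in D206 and 40 in C395, where 31 were lower and the median was 0.07. Of all 15148 genes, 6728 were higher in B459, 7292 in C117, 7913 in D206 and 5571 in C395. Krt6a differed by 3.15, 5.52, 1.82 and 0.31 in these mice in turn, and Snai2 by 3.55, 3.06, 1.75 and 0.28. The mouse with the smallest score difference thus had the smallest difference for both genes. Of the 12 genes of largest downward difference, 12 were lower in B459, 9 in C117, 12 in D206 and 8 in C395. Over all 65 genes 2-fold lower, 48 were lower in B459, 49 in C117, 55 in D206 and 39 in C395. Of all 15148 genes, 7191 were lower in B459, 7113 in C117, 5989 in D206 and 8280 in C395. In C395 the share of the 65 was thus close to that of all genes. Fn1 was lower by 4.02 in B459, with a difference of -1.36 in D206 and -0.84 in C395, but in C117 it was higher in the high tumors, by 2.13. These mice are part of the 22 tumors, so the values describe the split rather than test it.

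**Figure D4:**
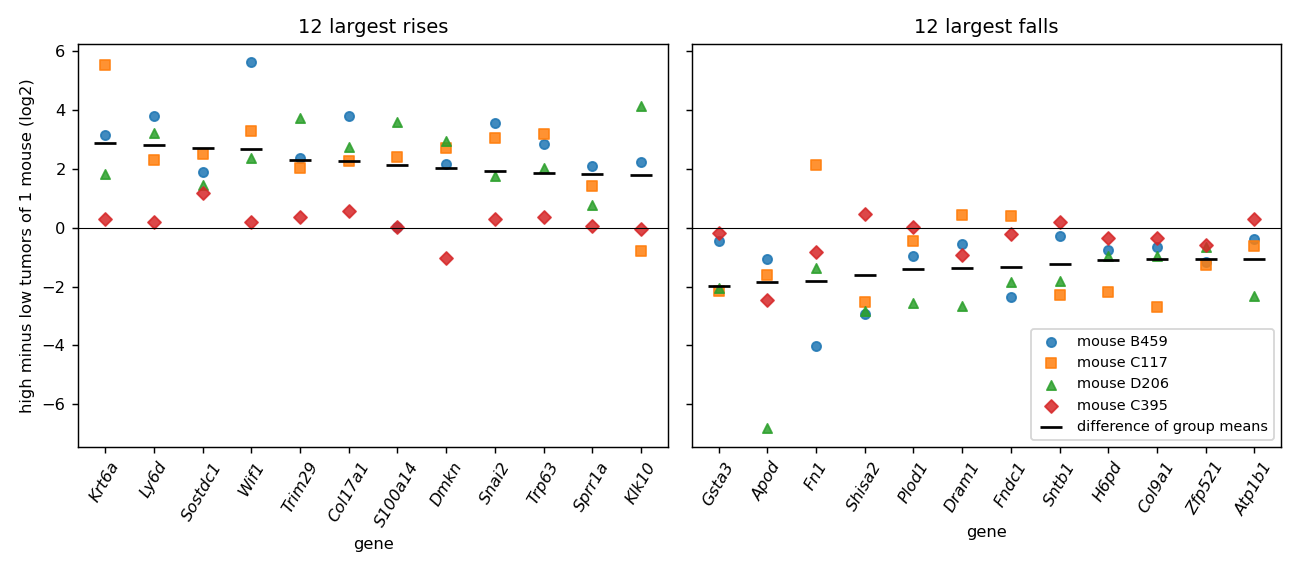
Log2 difference between the high and the low tumors of 1 mouse, for the 4 mice that had both, over the 12 genes of largest upward (left) and downward (right) difference; black bars are the difference of the group means over all 22 tumors. Upward genes lie mostly above 0 in every mouse, closest to 0 in C395, while Fn1 ranges from -4.02 in B459 to 2.13 in C117.

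The one test used arrays outside the split: 12 arrays of sorted lacZ-positive tumor cells of 8 other mice. There the same Krt5 and Krt14 score ran from 8.24 to 12.87 and entered as a continuous term, with transplanted or primary as a covariate and mouse of origin as a random block. The slope is the log2 change of a gene per unit of score, with its SE. Of 14985 genes, 3 (0.02%) had a positive slope past an adjusted p of 0.05 in limma with Benjamini-Hochberg adjustment, and 0 (0%) a negative one. At an unadjusted p under 0.05 there were 268 positive and 583 negative slopes. The sort took lacZ-positive cells, those in which Cre had acted, and 12 arrays set the precision.

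All 3 genes that rose with the score were on the basal list and among those most like the score in whole tumors. In order of the score from 8.24 to 12.87, Krt6a was at 5.00, 7.91, 8.25, 9.80, 10.16, 10.27, 10.47, 11.34, 11.73, 11.55, 11.81 and 12.18. Snai2 was at 5.00, 5.94, 6.97, 7.92, 7.18, 8.10, 9.22, 8.79, 8.74, 9.48, 8.70 and 8.99. Trp63 was at 5.00, 6.58, 6.69, 7.31, 7.27, 8.11, 9.07, 8.79, 9.13, 8.29, 9.21 and 9.77. The sorted primary tumor G421T1, lowest in the score, was at the floor for all 3, and Krt6a then climbed almost without a step back. The slopes were 1.30 ± 0.13 for Krt6a, 0.93 ± 0.09 for Snai2 and 0.95 ± 0.10 for Trp63, each with an adjusted p of 0.0043. With the mean of probe sets the slopes were 0.93 for Krt6a, 0.86 for Snai2 and 0.60 for Trp63. Their adjusted p in limma were then 0.039, 0.011 and 0.040. Leaving out mouse E344 or mouse F433 ended all 3 calls, with adjusted p of 0.121 to 0.252 and of 0.989 to 1.00, and slopes then lay between 0.83 and 1.37. Without F433 the correlation within mice could not be estimated and the fit had no block. The 8 primary arrays alone gave adjusted p of 0.417 to 0.789 and slopes of 0.86 to 1.43.

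Other basal genes had positive slopes short of the threshold. Krt17 had a slope of 1.56 ± 0.21 (adjusted p = 0.0514 in limma), Perp 0.55 ± 0.08 (adjusted p = 0.062), Trim29 1.04 ± 0.16 (adjusted p = 0.082) and Col17a1 1.16 ± 0.20 (adjusted p = 0.183). Sostdc1 had a slope of 1.14 ± 0.20 (adjusted p = 0.183 in limma). On the basal list 27 of 30 slopes were above 0, 19 of them with an unadjusted p under 0.05, and the median was 0.36, against 41.0% above 0 and a median of -0.02 over all genes. On the epidermal list 25 of 29 were above 0, with a median of 0.09. Of the 72 genes at least 2-fold higher in whole tumors, 62 (86.1%) had a slope above 0, with a median of 0.46 and 35 with an unadjusted p under 0.05. Over all 14985 genes, 268 positive slopes had an unadjusted p under 0.05 (limma). Klk10 was one of the exceptions, at -0.38 ± 0.53.

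No downward gene passed the test in sorted cells. Of the 65 genes 2-fold lower in whole tumors 64 were fitted, 13 (20.3%) had a slope above 0 and the median was -0.22, with 10 negative slopes at an unadjusted p under 0.05 and none past the adjusted threshold. Over all 14985 genes 41.0% had a slope above 0, and 583 slopes were negative at an unadjusted p under 0.05 (limma). Fn1 had a slope of -0.09 ± 0.25, and over the 12 sorted arrays it lay between 8.06 and 12.45 with its highest values in the middle of the score. Dcn had a slope of -0.09 ± 0.39 and Col9a1 of -0.58 ± 0.21 (unadjusted p = 0.0185 and adjusted p = 0.798 in limma). On the fibroblast list 4 of 20 slopes were above 0 and on the hypoxia list 7 of 16, the latter near the share of all genes. On the luminal keratin and junction list 2 of 26 slopes were above 0 in sorted cells, with a median of -0.17, whereas 22 of 26 differences had been above 0 in whole tumors. Chil1 had a slope of -1.19 ± 0.33 (adjusted p = 0.633 in limma).

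**Figure D5:**
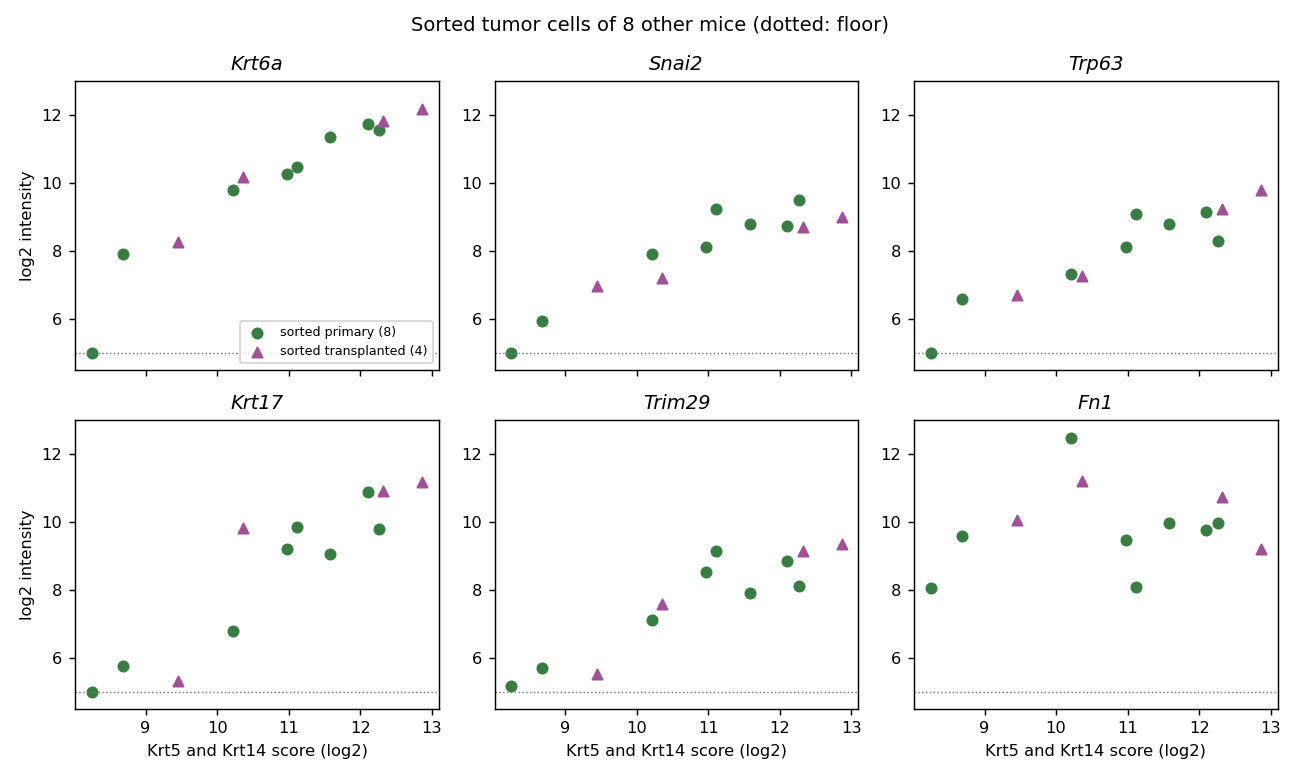
Log2 intensity of 6 genes against the Krt5 and Krt14 score in 12 arrays of sorted tumor cells from 8 mice that gave none of the 22 tumors (green circles, 8 primary; purple triangles, 4 transplanted; dotted line, floor of 5). Krt6a, Snai2 and Trp63 climb with the score and passed the test, while Fn1 shows no steady course, with a slope of -0.09.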

How the data were processed

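Total RNA was extracted with Trizol, labelled with biotin and hybridized to Affymetrix mouse whole genome arrays, per the labels. The deposited table gives linear intensities, 1 value per probe set and array. For their summary and scaling by the authors no method is stated in the sources used here. Values below 32 were raised to 32 (37.4% of all values) before log2 was taken, and 1 probe set with extreme values was left out of 45101. Symbols came from the platform annotation, updated with RefSeq. A gene was represented by its probe set of highest mean over all arrays and kept if at least 4 arrays had it above their 40th percentile (15150 of 18192 genes).

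Groups of 11 were formed by the Krt5 and Krt14 score, and genes were described by the difference of group means, with no test. Slopes in sorted cells were fitted with lmFit and eBayes of limma 3.58.1 (R 4.3.3), with mouse as a random block (duplicateCorrelation, consensus correlation 0.674), and p-values were adjusted by Benjamini-Hochberg over all genes. Replicates are tumors or arrays, some of 1 mouse. The fit was tested on simulated data. Plots used Python 3.11.15, pandas 2.3.3 and matplotlib 3.10.9.

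Named genes were the 12 largest upward and 12 largest downward differences among genes whose higher group had a mean above the median probe set and of which at least 9 of the 11 tumors of a group lay beyond the median tumor, skipping transcripts without an established name. Added were a fixed set of basal, luminal, milk and stromal markers, up to 4 genes of each list described and the 8 most like the score. Genes were also counted over 34 lists. The members, the lists and the score were chosen with earlier results of these data known.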

Additional observations from a re-analysis of the deposited data

How the results depend on the processing

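Alternatives changed 1 choice at a time, and the 2 on the place of the line and on the Gapdh ratio were chosen after seeing the data. The counts of genes 2-fold higher and lower, 72 and 65, became 39 and 31 with the floor at 100, 159 and 172 for the highest 7 against the lowest 7 tumors, and 148 and 151 for the lowest 7 against the other 15. Without the 5 tumors of highest Gapdh ratio, among them D279T1, D9 and D481 of highest score, the lower count was 37. Under each other alternative both counts stayed within 1.5 times, and leaving out each tumor in turn gave 66 to 95 genes higher and 46 to 87 lower. Of 672 differences of 56 named genes under these alternatives, 665 moved by less than the spread between tumors, 7 by more and 0 changed sign where they had passed 2-fold. In sorted cells 3 positive slopes were called, and 6 without the mouse block, 0 in the primary tumors alone, 13 with 1 negative over all 15 arrays, 5 without the transplant term, 6 after quantile normalization and 5 with the mean of probe sets; leaving out each mouse gave 0 to 5 positive and 0 negative. The causes were not tested, and the primary tumors alone were fewer arrays. Genes such as Krt17 at an adjusted p of 0.0514 (limma) lie near the limit that 12 arrays set. The fold of genes whose low tumors lie at the floor depends on that floor. H6pd, Zfp521 and Atp1b1 lost the 2-fold difference when any 1 of 3 or 4 tumors was left out, and Col9a1 without C117T6. No paired analysis was possible because the groups were chosen by measured values and the numbers in the labels name tumors, recipients or arrays; the 4 mice with tumors in both groups are given as a description in the report.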
